A study of Mus musculus with 7 samples.

Results

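Metalloproteinases and their inhibitors were followed in osteocyte-enriched long bone of mice labelled as lacking site-1 protease in the osteocyte lineage. The members were the genes whose symbol is Mmp, Adam, Adamts, Adamtsl or Timp followed by a number and an optional letter, taken from probe sets that name exactly 1 gene, with Mmp8 and Mmp9 left out. There were 81 such genes among 19938 named on the array: 20 Mmp, 4 Timp, 18 Adamts, 5 Adamtsl and 34 Adam genes. Where several probe sets named a gene, the brightest on average was used. Of the 81, 46 passed a filter on low signal (a mean log2 signal of at least 6.42, or an intensity of about 69.7) and are called measured here.

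The arrays compared 3 knockout mice with 4 controls. Knockout mice carried a deletion of Mbtps1, which encodes site-1 protease, made by Cre recombinase under the Dmp1 promoter. That promoter is known to be active mainly in osteocytes and late osteoblasts, and the tissue holds other cells too. Controls were labelled wildtype and described as littermates, and no label says whether they carried Cre or a floxed allele. All mice were male and 39 to 41 weeks old. Cut pieces of long bone without marrow had gone through 4 rounds of alternating collagenase and 5 mM EDTA to enrich osteocytes. The design text counts mice, so replicates are separate animals.

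Metalloproteinases are enzymes that hold a zinc ion in their active site and are made as inactive proenzymes. Matrix metalloproteinases (MMPs) cut collagens and other matrix proteins, ADAMs are membrane proteins that mostly shed the outer parts of other membrane proteins, and ADAMTS enzymes are secreted and cut proteoglycans, procollagens and von Willebrand factor. ADAMTSL proteins resemble ADAMTS enzymes without the protease part, and TIMPs block the active site. In bone these enzymes act on collagen in growth, resorption and the remodelling of the matrix around osteocytes.

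After Benjamini-Hochberg adjustment over the 13938 genes tested in limma, 0 members were under 0.05 (background 0%), and the smallest adjusted p of a member was 0.638. At an unadjusted p under 0.05, 4 of the 46 measured members were lower in knockout bone, where 2.71% of all genes were, and 1 was higher, where 3.77% of all genes were. After quantile normalization the counts were 5 lower and 0 higher of 47, against 4.14% and 3.82% of all genes. The 4 lower ones were Mmp14, Timp2, Adamts1 and Mmp2, and the higher one was Adamts7. With a minimum of 1.5-fold added, Mmp14 and Timp2 stayed on the lower side, 2 of 46, against 0.811% of all genes. Log2 fold changes (knockout minus control, on log2 of intensity + 16) ran from -0.67 to 0.36 over the measured members. Their median was 0.02, against 0.07 over all genes, and 21 of 46 were below 0, against 32.3% of all genes. The count of members higher in knockout bone was 3 of 46 without control 4, where 9.41% of all genes were higher. It was 0 without control 1, control 2 or knockout 1, where 2.91%, 2.09% and 0.947% of all genes were. Since members were filtered on their signal, these counts describe the 46 and not all 81. Adamts16, Mmp21 and Adam4, all above 0, passed the filter only through the knockouts. Their control means (67.2, 69 and 68.5) lay under an intensity of 69.7, and their knockout means (81.3, 78.3 and 74.5) above it.

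**Figure D1:**
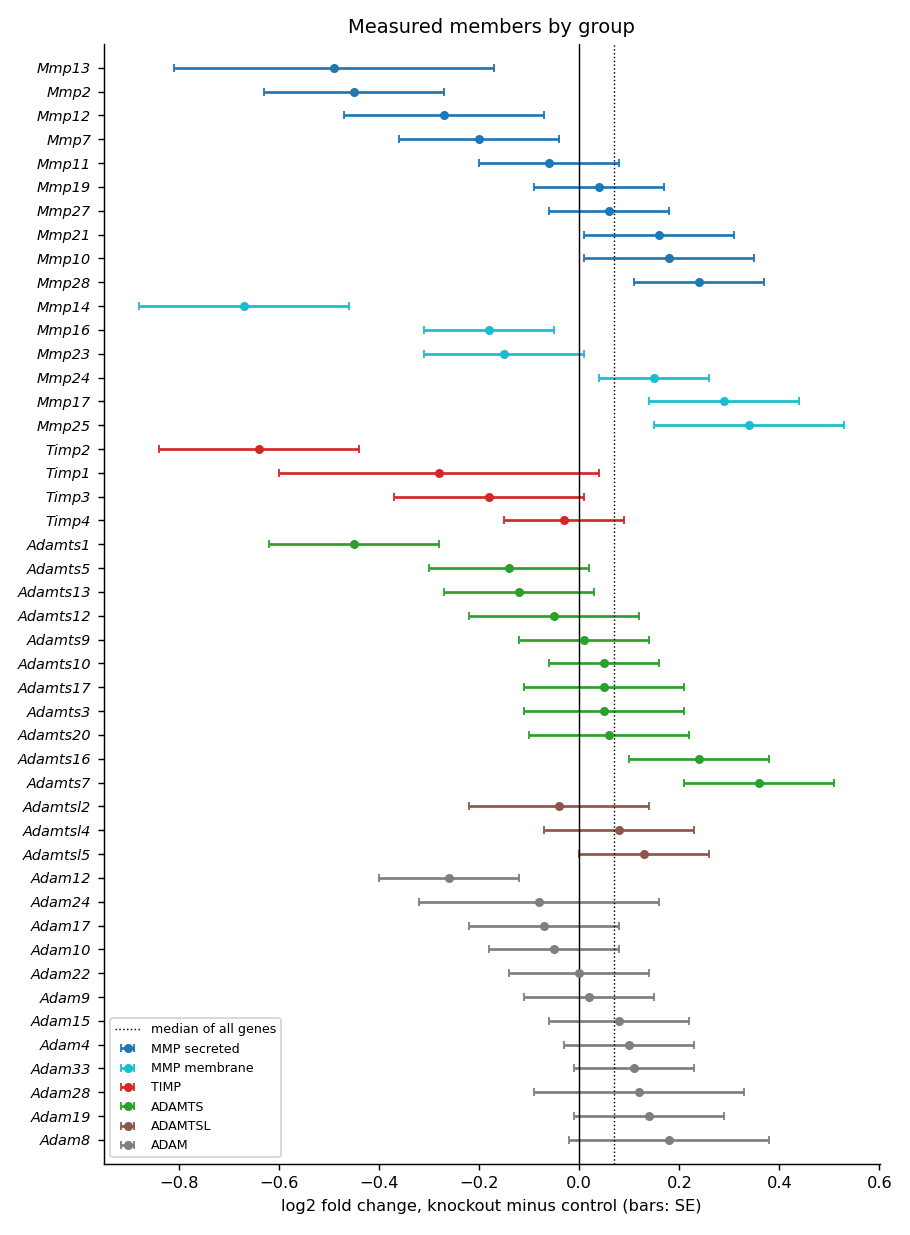
Log2 fold change of the 46 measured members, knockout minus control (x axis; log2 of intensity + 16), in rows ordered by group and value, with bars for the SE. Mmp14 and Timp2 lie farthest to the left at -0.67 and -0.64, and the dotted line marks the median of all genes at 0.07.

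The targeted gene Mbtps1 read 149 ± 12.9 (SD) in controls and 125 ± 24.9 in knockouts, and knockout 3 (154) lay within the control range, with controls from 131 to 162. Its log2 fold change was -0.23 (SE 0.14; adjusted p = 0.807 in limma), and which part of the gene the probe set reads was not analysed here. Median intensity ran from 87.3 (control 3) to 107.7 (control 4). Among 10 osteocyte markers named on the array, all passed the filter, none was at 0, and 7 were lower at an unadjusted limma p under 0.05. These were Dmp1, Sost, Mepe, Phex, Dkk1, Irx5 and Ptprz1, on a list chosen with earlier results of these data known. The others had log2 fold changes of -0.08 (Pdpn), 0.16 (Capg) and 0.25 (Fgf23). The summed intensity of the 10 ran from 4267 to 10385 in controls, highest on control 4, and from 2393 to 3275 in knockouts. Of 7 osteoblast and bone matrix markers, 3 were lower at that p, with sums of 3599.9 to 6828 in controls and 3264 to 4845 in knockouts. No marker of marrow cells was at 0 on any array. Members under the filter were not at 0 either, with a lowest value of 4.9, so a value above 0 does not by itself show a transcript. Sums of 8 neutrophil markers ran from 34164 to 36396 in controls and from 29447 to 35329.8 in knockouts, with 2 of 8 lower at that p. All 7 B cell markers had log2 fold changes above 0, 2 of them higher at that p, with sums of 1585 to 3350.3 in controls and 3160.3 to 3502 in knockouts. All 7 erythroid markers were above 0 too, none at that p, with sums of 3664 to 7839 in controls and 6854 to 7336 in knockouts. Control 4 had the lowest sum of both lists. Of the 13938 genes tested, 9434 were above 0 as well, and 2.71% were lower and 3.77% higher at that p. In such bulk RNA, fewer cells of a type and less RNA per cell cannot be told apart. The part of these markers in the results below was not tested. Apart from these sums, in which bright probe sets weigh most, intensities are compared between arrays for 1 probe set at a time. Ranks between genes were used for the filter and to choose members to name.

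The sequences before the start sites of 4 members are shown because Mmp14, Timp2 and Adamts1 are the members with the smallest unadjusted p whose window was at hand, and because Mmp13 stands for the neighbouring Mmp genes. Windows of 250 bases before the RefSeq start (GRCm38.p6, given 5′ to 3′ on the gene's strand) were searched on both strands for 4 motifs. The motif bound by AP-1 factors was spelled TGANTCA, and the one bound by RUNX factors, which direct osteoblast genes, was spelled TGTGGT. The box bound by Sp-family factors in many housekeeping promoters, here called the GC box, was spelled GGGCGG. The last motif, the start-site element named the TATA box, was spelled TATAAA. Capitals mark matches, and no 2 matches share a base in these 4 windows.
Mmp13, chr9:7272264-7272513, plus strand: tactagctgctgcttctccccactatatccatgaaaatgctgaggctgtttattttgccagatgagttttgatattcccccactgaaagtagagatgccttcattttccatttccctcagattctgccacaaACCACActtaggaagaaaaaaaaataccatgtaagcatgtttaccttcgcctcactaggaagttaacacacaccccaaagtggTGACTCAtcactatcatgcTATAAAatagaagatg
Mmp14, chr14:54431348-54431597, plus strand: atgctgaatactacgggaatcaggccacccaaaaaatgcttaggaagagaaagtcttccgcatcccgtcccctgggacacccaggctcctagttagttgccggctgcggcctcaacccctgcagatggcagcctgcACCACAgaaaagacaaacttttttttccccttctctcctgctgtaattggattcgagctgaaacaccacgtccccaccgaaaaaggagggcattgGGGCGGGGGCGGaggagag
Timp2, chr11:118355412-118355661, minus strand: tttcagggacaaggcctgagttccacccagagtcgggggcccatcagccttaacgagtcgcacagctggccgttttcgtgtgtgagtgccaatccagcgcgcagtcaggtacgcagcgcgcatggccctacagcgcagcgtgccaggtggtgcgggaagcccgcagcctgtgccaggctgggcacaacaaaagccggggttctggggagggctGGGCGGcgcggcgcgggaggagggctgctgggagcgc
Adamts1, chr16:85803114-85803363, minus strand: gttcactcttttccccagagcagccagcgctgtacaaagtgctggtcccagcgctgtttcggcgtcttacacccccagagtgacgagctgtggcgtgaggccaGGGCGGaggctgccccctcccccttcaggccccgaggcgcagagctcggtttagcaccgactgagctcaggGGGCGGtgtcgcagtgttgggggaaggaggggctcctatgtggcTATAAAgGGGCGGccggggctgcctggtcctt
In Mmp13 the capitals are, in order, a RUNX match starting 118 bases before the start, the AP-1 match TGACTCA starting 35 bases before it and a TATA box 16 bases before it. In Mmp14 they are a RUNX match starting 114 bases before the start and a pair of adjoining GC boxes at 19 and 13 bases. Timp2 has 1 GC box, 37 bases before the start. Adamts1 has GC boxes at 147, 76 and 25 bases and a TATA box at 32 bases before the start.

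Windows were found for 51 of the 81 members. The AP-1 motif stood in 12 of these 51 and in 7.82% of the 27025 genes with a window. Among the Mmp genes its presence went with their place in the genome. Mmp13, Mmp12, Mmp1b, Mmp3, Mmp1a, Mmp10, Mmp8, Mmp27, Mmp20 and Mmp7 are neighbours in RefSeq's GRCm38.p6, and 9 of these 10 are members. The AP-1 letters were in 8 of those 9 windows, all but that of Mmp27, and in 0 of the 7 windows of other Mmp genes, Mmp14 among them. GC boxes stood in 22 of the 51 windows, against 35.4% of all genes, RUNX letters in 11, against 15.9%, and TATA letters in 13, against 14.3%. A match describes the letters of a window and not the binding of a factor.

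Mmp14, Mmp2 and Timp2 belong to 1 activation system. Mmp14 encodes a membrane-anchored MMP that cuts collagen at the cell surface, Timp2 encodes an inhibitor that bridges it to the proenzyme of gelatinase A, and Mmp2 encodes gelatinase A itself. All 3 had lower mean signal in knockout bone. Mmp14 read 451, 314, 402 and 648 on controls 1 to 4 and 246, 319.8 and 249 on knockouts 1 to 3. Knockouts 1 and 3 lay below every control, and knockout 2 lay just above control 2, the lowest control. The means were 454 ± 141 in controls and 272 ± 41.6 in knockouts (SD, n = 4 and 3). Folds are given from the log2 fold changes and are not ratios of such means. The log2 fold change was -0.67, or 1.59-fold lower in knockouts (SE 0.21; unadjusted limma p = 0.00695, adjusted p = 0.638; two-sided exact permutation test, p = 0.0857; with 35 possible splits its smallest p is 0.0286). With each array left out it ran from -0.82 to -0.49, and the unadjusted p stayed under 0.05 in 7 of 7 sets.

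Timp2 read 594, 569, 589 and 1048 on controls 1 to 4 and 419.9, 463 and 402 on knockouts 1 to 3. It was the only measured member with every knockout below every control, a pattern that 2.76% of all genes had. Control 4 stood far above the other 3 controls, which lay between 569 and 594. The means were 699.8 ± 232 in controls and 428 ± 31.6 in knockouts. The log2 fold change was -0.64, or 1.56-fold lower in knockouts (SE 0.20; unadjusted limma p = 0.00723, adjusted p = 0.638, exact permutation p = 0.0286, the smallest this test can give). Without control 4 the log2 fold change of Timp2 was -0.44 and in 7 of 7 sets with 1 array left out its unadjusted limma p stayed under 0.05. Control 4 also had the highest Mmp14 signal and the highest sum of osteocyte markers. Without control 4 the log2 fold change of Mmp14 was -0.49 (unadjusted limma p under 0.05).

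Mmp2 read 274, 204, 368 and 249 on controls 1 to 4 and 207, 208 and 165 on knockouts 1 to 3. Here control 3 and not control 4 was highest, and control 2 lay below knockouts 1 and 2. The means were 274 ± 69.3 and 193 ± 24.6, a log2 fold change of -0.45 (SE 0.18; unadjusted limma p = 0.0271, adjusted p = 0.745, exact permutation p = 0.114). With 1 array left out, Mmp2 stayed under an unadjusted limma p of 0.05 in 4 of 7 sets, and not without control 1, control 3 (log2 fold change -0.30) or knockout 3 (-0.35). With unmoderated variances, in an ordinary linear model per gene, none of the 5 members stayed under 0.05.

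**Figure D2:**
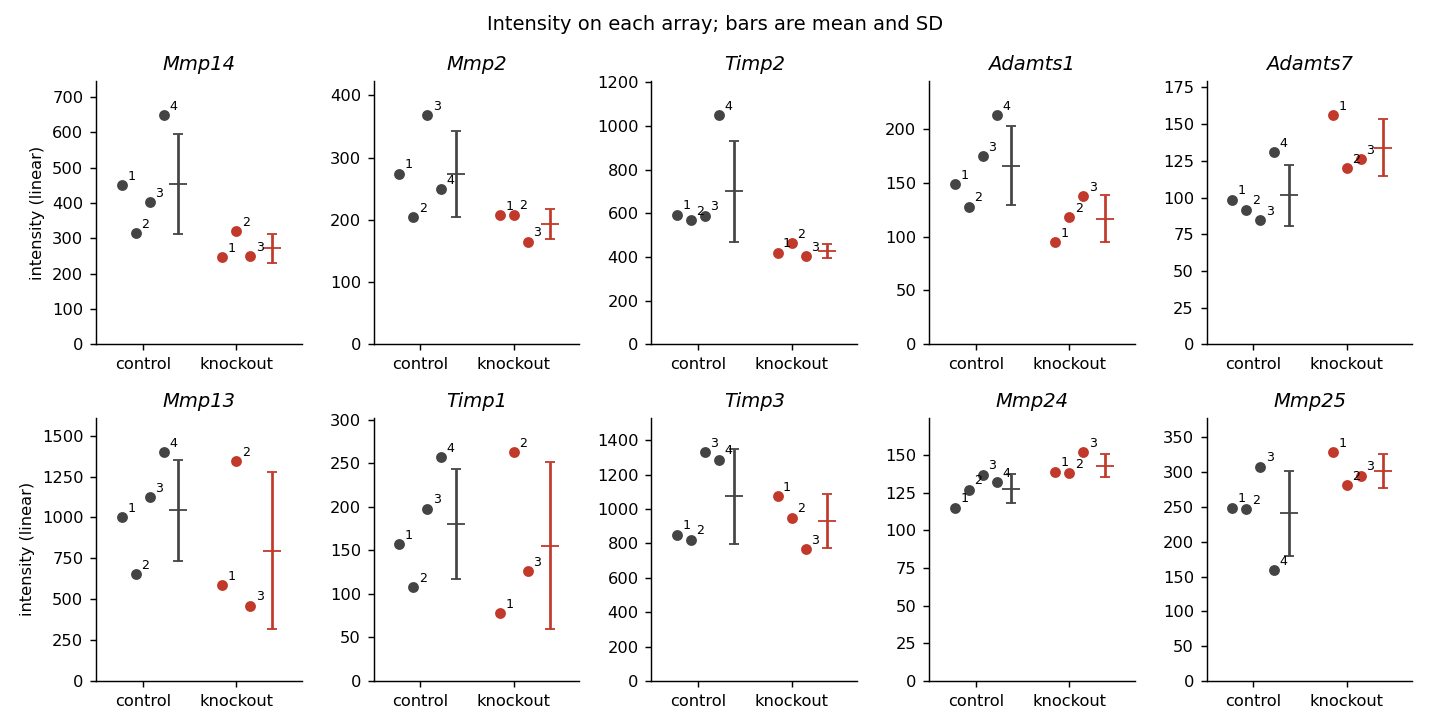
Intensity on a linear scale (y axis, from 0) on each control and knockout array for 10 members, with array numbers beside the points and the mean and SD at the right of each group. Timp2 is separated between the groups, with control 4 at 1048 far above the other controls, and in Mmp13 and Timp1 knockout 2 (1345 and 263) lies apart from knockouts 1 and 3.

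Among the secreted MMPs, 10 of 14 members were measured, 5 below and 5 above 0, where 32.3% of all genes were below. Mmp13 encodes the main interstitial collagenase of the mouse and is a known product of osteoblast-lineage cells and hypertrophic chondrocytes. It read 1000.0, 654, 1123 and 1400.0 on controls 1 to 4 and 584, 1345 and 459.8 on knockouts 1 to 3. Knockouts 1 and 3 lay below every control, whereas knockout 2 was close to control 4, the highest array. The log2 fold change was -0.49 (SE 0.32, adjusted p = 0.818 in limma), -0.94 without knockout 2 (unadjusted limma p under 0.05) and -0.18 without knockout 3. Knockout 2 had the highest sum of the 3 knockouts for 7 of the 11 marker lists: osteocyte (3275), osteoblast (4845), osteoclast (5071), chondrocyte (1377), neutrophil (35329.8), macrophage and monocyte (4280.0) and B cell (3502).

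Mmp12, the macrophage metalloelastase, read 142, 131, 68.3 and 149.6 on controls 1 to 4 and 89.2, 95.2 and 103 on knockouts 1 to 3. Knockouts lay below controls 1, 2 and 4 but above control 3, and the log2 fold change was -0.27 (SE 0.20, adjusted p = 0.834 in limma). Without control 3 every knockout was below every remaining control and the value was -0.49 (unadjusted limma p under 0.05). Control 3 had the lowest median intensity of the arrays, and 18 of the 46 measured members were lowest there, against 21.5% of all genes. Sums of 8 macrophage and monocyte markers were 4089 on control 3 and 2985 to 4497 over all controls, and 3611 to 4280.0 in knockouts, with none at 0. Mmp28, or epilysin, read 80, 72.5, 80.6 and 99.4 on controls 1 to 4 and 105, 93.9 and 104 on knockouts 1 to 3 (log2 fold change 0.24, SE 0.13, adjusted p = 0.803 in limma). Its knockouts 1 and 3 exceeded every control. Without control 4 its log2 fold change was 0.32 (unadjusted limma p under 0.05). Mmp11, which encodes stromelysin-3, had means of 243 ± 34.9 and 230.2 ± 10.9 and a log2 fold change of -0.06 (SE 0.14). The log2 fold changes of the remaining 5 measured secreted MMPs ran from -0.20 (Mmp7, matrilysin) to 0.18 (Mmp10, a stromelysin).

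The neighbouring Mmp genes did not share 1 pattern on the arrays. Of the 9 members among them, 5 were measured. Their log2 fold changes were -0.49 (Mmp13), -0.27 (Mmp12), -0.20 (Mmp7), 0.06 (Mmp27) and 0.18 (Mmp10), and none had an unadjusted limma p under 0.05. The other 4, Mmp3, Mmp20, Mmp1a and Mmp1b, lay under the filter, with means over all arrays between 22.4 and 63.1.

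All 6 membrane-bound Mmp members named on the array were measured, 3 below and 3 above 0, where 32.3% of all genes were below. Mmp24 read 115, 127, 137 and 132 on controls 1 to 4 and 139, 138 and 152 on knockouts 1 to 3. It was the only measured member with every knockout above every control, a pattern of 5.22% of all genes, but the gap was narrow, between control 3 (137) and knockout 2 (138). Its log2 fold change was 0.15 (SE 0.11, adjusted p = 0.834 in limma; exact permutation p = 0.0571). Mmp25, known from leukocytes and held to the membrane by a lipid anchor, read 249, 247, 308 and 159.5 on controls 1 to 4 and 329, 281 and 295 on knockouts 1 to 3. Control 4 was lowest and control 3 lay between the knockouts. The log2 fold change was 0.34 (SE 0.19, adjusted p = 0.804 in limma), 0.17 without control 4 and 0.46 without control 3 (unadjusted limma p under 0.05). Control 4 also had the lowest sums of the 7 arrays for macrophage and monocyte (2985), B cell (1585), erythroid (3664) and adipocyte (1659) markers. The sum of neutrophil markers was 34164 on control 4, and 29447 and 33464 on knockouts 1 and 3, where Mmp25 read 329 and 295. Whether any of these sums bears on Mmp25 was not tested.

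Mmp17, another lipid-anchored MMP, read 67.2, 66.4, 69.3 and 102 on controls 1 to 4 and 101, 88.7 and 97.8 on knockouts 1 to 3. Controls 1 to 3 lay closely together below every knockout, and control 4 lay above them all. Its log2 fold change was 0.29 (SE 0.15, adjusted p = 0.792 in limma), and 0.42 without control 4 (unadjusted limma p under 0.05). Mmp16, a transmembrane relative of Mmp14, had means of 138 ± 21 and 119 ± 11.4 and a log2 fold change of -0.18 (SE 0.13). Mmp23 had one of -0.15 (SE 0.16).

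All 4 inhibitor genes were measured and all 4 had log2 fold changes below 0, where 32.3% of all genes were, but 3 of the signs did not hold throughout. Without controls 3 and 4 together the log2 fold change of Timp1 was 0.08, that of Timp3 0.14 and that of Timp4 0.11, and with 1 array left out Timp1 reached 0.08 and Timp4 0.03. Timp3, whose product binds to the matrix and also blocks several ADAM and ADAMTS enzymes, read 851, 822, 1331 and 1287 on controls 1 to 4 and 1075, 948 and 767 on knockouts 1 to 3. Controls 3 and 4 were the highest, controls 1 and 2 lay among the knockouts, and the log2 fold change was -0.18 (SE 0.19, adjusted p = 0.869 in limma). Timp1 read 157, 108, 198 and 257 on controls 1 to 4 and 77.6, 263 and 126 on knockouts 1 to 3. Its highest and lowest readings of the 7 were both knockouts, 2 and 1. The log2 fold change of Timp1 was -0.28 (SE 0.32, adjusted p = 0.874 in limma), -0.71 without knockout 2 (unadjusted limma p under 0.05) and 0.08 without knockout 1. Timp1 and Mmp13 had their highest readings on the same 2 arrays, control 4 and knockout 2. Timp4 had means of 137 ± 17.1 and 133 ± 9.99 (log2 fold change -0.03, SE 0.12). Timp1, Timp3 and Timp4 overlap the synapsin genes Syn1, Syn3 and Syn2 in RefSeq, and Timp2 overlaps Cep295nl. Which strand and exons the probe sets read was not analysed here.

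Of 18 ADAMTS members, 11 were measured, 4 below and 7 above 0. The share below 0 was 36.4%, near the 32.3% of all genes. Adamts1 encodes a protease of the proteoglycans aggrecan and versican and read 149, 128, 175 and 213 on controls 1 to 4 and 94.7, 118 and 138 on knockouts 1 to 3. Knockouts 1 and 2 lay below every control and knockout 3 above control 2. The means were 166 ± 36.7 in controls and 117 ± 21.8 in knockouts. The log2 fold change was -0.45, or 1.36-fold lower in knockouts (SE 0.17; unadjusted limma p = 0.02, adjusted p = 0.705, exact permutation p = 0.114). It was -0.32 without knockout 1 and -0.23 without controls 3 and 4 together, and in neither case under an unadjusted limma p of 0.05.

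Adamts7, whose product is known to cut the cartilage protein encoded by Comp, read 98.4, 91.8, 84.4 and 131 on controls 1 to 4 and 156, 119.8 and 126 on knockouts 1 to 3. Knockout 1 was above all controls, and knockouts 2 and 3 were above controls 1 to 3 but under control 4. The means were 101 ± 20.6 in controls and 134 ± 19.5 in knockouts. The log2 fold change was 0.36, or 1.28-fold higher in knockouts (SE 0.15; unadjusted limma p = 0.0322, adjusted p = 0.755, exact permutation p = 0.114). Its unadjusted limma p stayed under 0.05 in 3 of 7 sets with 1 array left out, and not without control 1, 2 or 3 or knockout 1, where its log2 fold change was 0.35, 0.32, 0.29 and 0.26. After quantile normalization it was 0.29 and no longer under that p.

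Adamts5, an aggrecanase, had means of 213 ± 37.3 and 191 ± 30.2 and a log2 fold change of -0.14 (SE 0.16, adjusted p = 0.878 in limma). Adamts16 had means of 67.2 ± 11.5 and 81.3 ± 6.21 (log2 fold change 0.24, SE 0.14). Its control mean lay under the filter intensity of 69.7, so it passed the filter only through the knockouts. Adamts17 (log2 fold change 0.05) and Adamts9 (log2 fold change 0.01) were close to 0 by their brightest probe sets. These genes have several probe sets that name only them. The 2 past the filter for Adamts17 gave 0.05 and 0.34, the 5 for Adamts9 ran from -0.26 to 0.01, and the 8 for Adamts3 from -0.08 to 0.24. Of the 5 ADAMTSL members, 3 were measured: Adamtsl4 (log2 fold change 0.08, SE 0.15), Adamtsl5 (log2 fold change 0.13, SE 0.13) and Adamtsl2 (log2 fold change -0.04, SE 0.18). Adamtsl4 and Adamtsl2 encode microfibril-associated proteins. All 3 read highest on control 4, at 174, 146 and 194.

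Of 34 ADAM members, 12 were measured, 4 below and 8 above 0, and none had an unadjusted limma p under 0.05. The share below 0 was 33.3%, near the 32.3% of all genes. Adam10 and Adam17 encode the broadly expressed sheddases, which cut Notch receptors and growth factor ligands at the cell surface. Adam10 read 512, 575, 614 and 515 on controls 1 to 4 and 538, 546 and 512 on knockouts 1 to 3, a log2 fold change of -0.05 (SE 0.13). Adam17 had means of 300.3 ± 45 and 284 ± 21.7 (log2 fold change -0.07, SE 0.15). The groups overlapped for both genes. Adam12, known from muscle and mesenchymal cells, read 92.9, 71.9, 113 and 92.3 on controls 1 to 4 and 71.2, 81.8 and 68.9 on knockouts 1 to 3 and had the lowest value of the ADAM members at -0.26 (SE 0.14, adjusted p = 0.804 in limma), and -0.36 without control 2 (unadjusted limma p under 0.05). Adam8, a leukocyte ADAM, had means of 321 ± 92.6 and 355 ± 29.3 (log2 fold change 0.18, SE 0.20). Like Mmp25 it was lowest on control 4 (234) and highest of the controls on control 3 (429). Adam19 (log2 fold change 0.14, SE 0.15) and Adam33 (log2 fold change 0.11, SE 0.12) had overlapping groups. The 3 knockouts of Adam33 lay between 129.7 and 130.3, within the control range of 105 to 131.

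**Figure D3:**
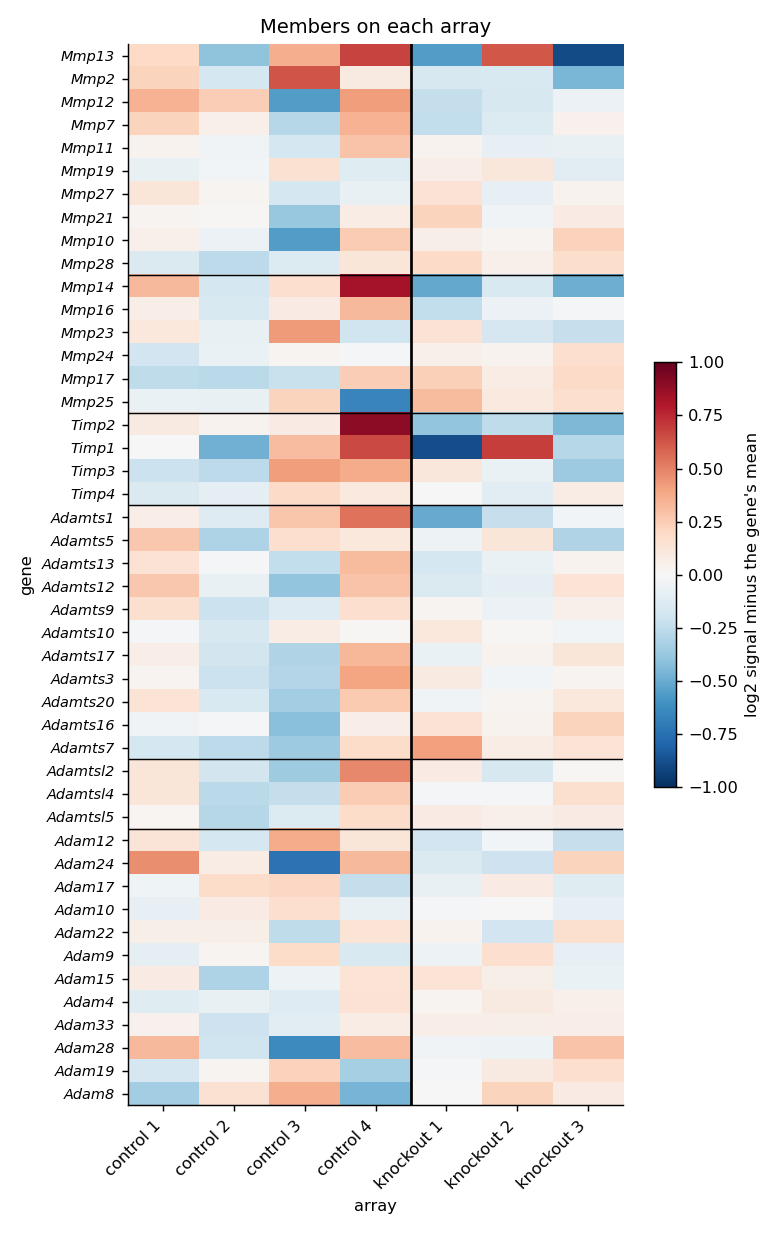
Signal of each of the 46 measured members (rows, by group and fold change) on each array (columns), as log2 of intensity + 16 minus the gene's mean over 7 arrays, from blue (lower) to red (higher). Control 4 was the highest array for 21 of the 46 members and the lowest for 6, where it was highest for 20.7% and lowest for 43.2% of all genes, and control 3 was lowest for 18, against 21.5% of all genes.

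The 35 members under the filter were 22 Adam, 7 Adamts, 4 Mmp and 2 Adamtsl genes, with means over all arrays from 9.26 to 70.8. Many of these ADAM genes, such as Adam2, Adam3, Adam7, Adam18 and Adam32, are known from testis or epididymis. Adam11, with a mean log2 signal of 6.42 that falls short of the filter before rounding, and Adamts4, an aggrecanase, were the nearest below it. Adamts4 read 69.9, 58, 48.8 and 98.7 on controls 1 to 4 and 76.1, 62.9 and 80.9 on knockouts 1 to 3. Adamts6 read 57.6, 56.8, 63.2 and 96.2 on controls 1 to 4 and 53.1, 55.3 and 51.3 on knockouts 1 to 3, with every knockout below every control, and Adam26a read 10.2, 6.91, 7.66 and 4.9 on controls 1 to 4 and 12.1, 11.4 and 11.6 on knockouts 1 to 3, the reverse order, at the lowest mean of all members. Both were picked for this order once it was known. Among genes past the filter, 2.76% had every knockout below every control and 5.22% the reverse. In the limma fit without the filter the log2 fold changes were -0.26 (adjusted p = 0.857) for Adamts6 and 0.25 (adjusted p = 0.857) for Adam26a, and neither was under an unadjusted p of 0.05. Of the 35, only Adam34l was under that p in this fit, where 3.67% of all genes were higher and 2.06% lower. It read 31.5, 26.3, 21.5 and 36.9 on controls 1 to 4 and 50.8, 34.1 and 52.7 on knockouts 1 to 3 (log2 fold change 0.45, adjusted p = 0.857 in limma). All of these values lay under the filter intensity of 69.7.

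The wider metalloproteinase system was read from 4 lists. Over all genes, 2.71% were lower and 3.77% higher at an unadjusted limma p under 0.05. In the list of activators and the plasminogen system, 7 of 11 genes were measured, and 1 had an unadjusted limma p under 0.05. This was Pcsk6, a proprotein convertase that cuts proenzymes at basic residues, which read 199, 160.2, 171 and 381 on controls 1 to 4 and 97.5, 119 and 126 on knockouts 1 to 3. Every knockout lay below every control, a pattern of 2.76% of all genes, and control 4 stood far above the other controls. Its log2 fold change was -0.83 (SE 0.23, unadjusted limma p = 0.00384, adjusted p = 0.605, exact permutation p = 0.0571), and -0.56 without control 4 (unadjusted limma p under 0.05). Furin, which activates Mmp14 and many ADAMs, had a log2 fold change of 0.15 (SE 0.15), chosen for its place in the activation of Mmp14.

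Of 17 cofactors, trafficking proteins and other inhibitors, 15 were measured. Tspan10 had an unadjusted limma p under 0.05, on the higher side, where 3.77% of all genes were. Tspan10 encodes a tetraspanin of the group that carries Adam10 to the cell surface. It read 98.5, 90.6, 103 and 112 on controls 1 to 4 and 167, 132 and 142 on knockouts 1 to 3. Every knockout lay above every control, a pattern of 5.22% of all genes. The log2 fold change of Tspan10 was 0.48 (SE 0.12, unadjusted limma p = 0.00196, adjusted p = 0.605, exact permutation p = 0.0286). Other tetraspanins of that group, Tspan5, Tspan14, Tspan17 and Tspan33, had log2 fold changes from 0.04 to 0.47, and Reck, a membrane inhibitor of MMPs, was at -0.14 (SE 0.14). These were named for their roles after their values were seen. In the list of other metzincin proteases 4 of 9 were measured and 0 had an unadjusted limma p under 0.05. The smallest p was that of Pcolce, an enhancer of procollagen cleavage (log2 fold change -0.20, SE 0.20, adjusted p = 0.866 in limma). In the list of shed ligands and proteoglycan substrates 9 of 13 were measured and again 0 reached that p. Vwf, whose product Adamts13 cuts, had the smallest (log2 fold change 0.41, SE 0.22, adjusted p = 0.804 in limma). The medians of the 4 lists ran from -0.01 to 0.06, against 0.07 over all genes.

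**Figure D4:**
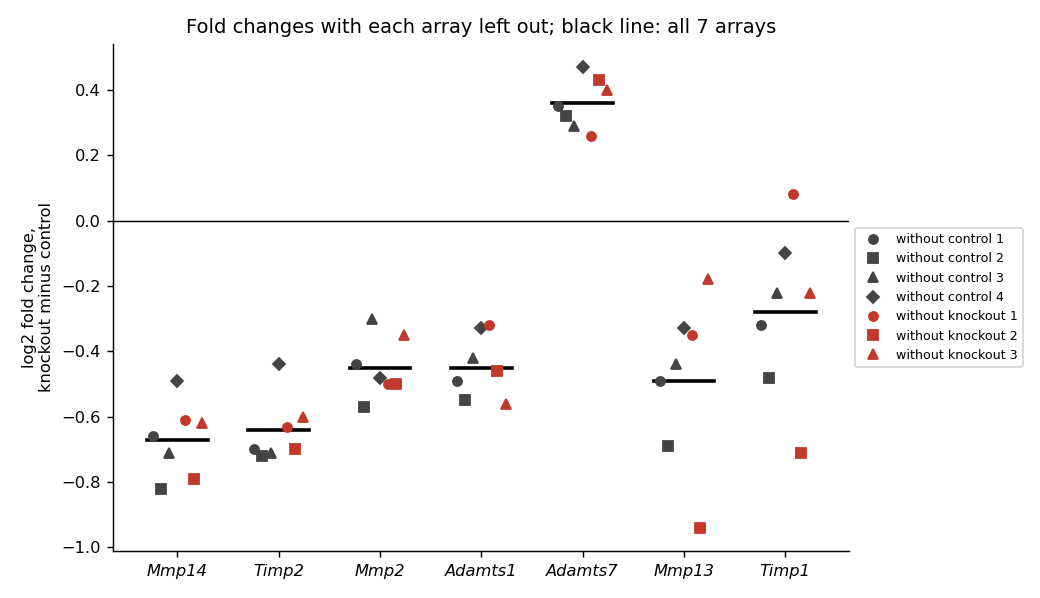
Log2 fold change, knockout minus control (y axis), of 7 members with each array left out in turn (points; grey for controls, red for knockouts) and with all 7 arrays (black lines). Mmp14 and Timp2 stay between -0.82 and -0.44, whereas Mmp13 runs from -0.94 to -0.18 and Timp1 from -0.71 to 0.08.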

How the data were processed

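RNA from 7 arrays (4 control and 3 knockout mice) was studied. Per the labels' protocols, 30 ng of total RNA per sample was converted to biotinylated cDNA. Intensity values of each probe set, not log-transformed, were deposited by the authors. The submitters' processing notes list PLIER and Affymetrix Expression Console 1.4. How background was corrected, how arrays were normalized and which genome build was used is not given in the sources used here.

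Genes were named by the platform annotation, and only the 21789 of 35556 probe sets naming 1 gene were used. Symbols were checked by Entrez identifier against RefSeq (GRCm38.p6), which changed 0. The probe set with the highest mean stood for each gene, and genes below a mean log2 signal of 6.42, the 30th percentile, were dropped, which left 13938 genes. Intensities were taken as log2(intensity + 16), which understates changes of low signals. The groups were compared by limma 3.58.1 (R 4.3.3), with a mean-variance trend, no covariates and p-values adjusted by Benjamini-Hochberg over all genes. The fit was also run on simulated data with independent normal values for each gene. Those data hold no differences between whole arrays, so they cannot show how such differences act on the fit. Figures used matplotlib 3.10.9.

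Named members were those with unadjusted p under 0.05 or groups that do not overlap, up to 4 with the smallest p and the 3 with the highest signal in each of 6 groups, and all Timp genes. In each pathway list they were those with unadjusted p under 0.05 or else the 1 with the smallest p. Any other gene was picked with its values already in view. The members and lists were chosen with earlier results of these data known. Alternatives were no filter or the 50th percentile, offsets of 1 and 64, quantile normalization, centring on the median, limma without its trend, unmoderated variances, weights per array, the replicate number as a block, the mean of probe sets, and leaving out arrays.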

Additional observations from a re-analysis of the deposited data

Results flagged for a closer look

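In 2 of the 29 named members 1 control lay far from the other 3 for the range of the 4, by Dixon's gap at its 95% critical value. Chance alone does this in about 1 of 20 groups. Both were control 4. Timp2 read 1048 there, against 569 to 594 on the other controls (gap 0.947 of the range), and Mmp17 read 102 against 66.4 to 69.3 (gap 0.918). Without control 4 the log2 fold changes were -0.44 for Timp2 and 0.42 for Mmp17, in place of -0.64 and 0.29.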

How the results depend on the processing

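No member passed the adjusted threshold in limma under any of the 19 alternatives run, and 5 had an unadjusted p under 0.05 in the fit as reported. The count of members lower at that p stayed within 1.5 times of 4 except with unmoderated variances, where it was 0, and so was the count higher. With unmoderated variances 2.12% of all genes were lower and 4.07% higher. Over the 19 alternatives 1.38% to 4.14% of all genes were lower, against 2.71% as reported. The count of members higher was 1 as reported, 2 with no filter, 0 after quantile normalization, 4 with array weights, 3 with the replicate block, 4 without controls 3 and 4 together, and 0 to 3 with each array left out. The share of all genes higher moved too, from 3.77% to 3.67% with no filter, 3.82% after quantile normalization, 9.94% with array weights, 8.37% with the block and 8.14% without controls 3 and 4, where the members' shares were 8.7%, 6.52% and 8.7% in the last 3. With each array left out, the count lower ran from 3 to 6 and the median from -0.03 to 0.04. In those sets 1.38% to 3.52% of all genes were lower and 0.947% to 9.41% higher. The median moved by less than the spread between controls (SD 0.134) under every alternative run. The replicate numbers are not taken to pair the mice: same-numbered arrays had deviations that correlated at 0.07, 0.15 and -0.53, and 1 of 6 arrays correlated best with its own number. Over all genes, 78 passed the adjusted threshold under the block, 5 with array weights, 5 without control 4 and 0 as reported. Without controls 3 and 4 together 2 passed, with centring on the median 1 and without knockout 2 again 1. Under the replicate block, which drops control 4, 4 members were lower, where 3.47% of all genes were, and the median was 0.04. Of the values of named members under the alternatives, 486 kept direction and side of an unadjusted p of 0.05, 17 left it, 18 came under it, 25 changed sign with p above it both times, and none reversed with a p under it. The cause was not tested. The number of arrays limits what could be detected.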
